A study of Mus musculus with 4 samples.

Results

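The genes described here are 8 CC chemokines, Ccl2, Ccl5, Ccl7, Ccl8, Ccl9, Ccl11, Ccl17 and Ccl20, together with Cx3cl1, the CX3C chemokine fractalkine. They were chosen by name, as the 12 non-control probes that carry these 9 gene names among 41174 probes for 26683 genes. All 9 genes were well above background on at least 1 array, 7 of them on every array.

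The cells were IMS/N, a line of hepatic stellate cells taken from the liver of normal 129/Sv mice and immortalized with SV40 virus. Total RNA was measured with 1 array in each of 4 groups, namely untreated cells, cells given recombinant murine IL17A, cells given medium from cultured adipose tissue-derived stem cells (ADSC medium), and cells given both. The stem cells came from inguinal subcutaneous fat of male C57BL/6J mice aged 8 to 10 weeks, and the cells in all groups carry the SV40 immortalization. Doses and times are not given in the sources used here. The study asked how ADSC medium acts on stellate cells activated by IL17A. Slide 1 carried the arrays without medium and slide 2 those with it, so the IL17A comparisons stay on 1 slide, while medium and slide cannot be told apart. No group has a second array, so nothing here was checked in replicates, and a gene called higher or lower was so on 1 array relative to another.

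Chemokines are small secreted proteins that guide leukocytes along gradients by binding G protein-coupled receptors. CC chemokines draw mainly monocytes, T cells, dendritic cells and eosinophils, and Cx3cl1 is made as a membrane-tethered protein that proteases can shed. In injured liver, activated stellate cells are a known source of Ccl2, which brings in monocytes, and IL17A is known to raise chemokine mRNA both through transcription and by slowing mRNA decay.

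IL17A alone was accompanied by higher Ccl2, Ccl5, Ccl7, Ccl8, Ccl11 and Ccl20. These 6 of 9 genes passed the size rule used throughout, a difference of 2-fold or more (1 on the log2 scale) with the probe well above background on the brighter array. The same rule was passed upward by 2.17% of the 15868 genes measured on either array, and downward by none of the 9 against 2.29% of genes. With medium present, IL17A was accompanied by higher Ccl2, Ccl7 and Ccl8, 3 of 8 genes measured against 2.86% of all, and by no lower gene of the 8 against 1.82%. Over the 7 chemokine genes measured on all 4 arrays, the median log2 difference was 1.16 without medium and 0.82 with it, and over all genes it was 0.003 and -0.032. With Ccl20, which was also measured on both arrays with medium, the second median was 0.58 over 8 genes.

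With ADSC medium, most of the differences of that size were toward lower signal. Against untreated cells, Ccl2 and Ccl9 were lower (2 of 8 against 2.98% of genes) and Ccl20 was higher (1 of 8 against 2.45%). When medium was added to IL17A, Ccl8, Ccl9, Ccl11 and Ccl20 were lower (4 of 9 against 3.11% of genes), and none was higher (3.22% of genes). With both agents against untreated cells, Ccl2, Ccl5, Ccl7 and Ccl20 were higher (4 of 8 against 3.38%) and Ccl9 was lower (1 of 8 against 4.29%). These 5 comparisons reuse the same 4 arrays. IL17A against untreated and both against medium share no array, nor do medium against untreated and both against IL17A.

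**Figure D1:**
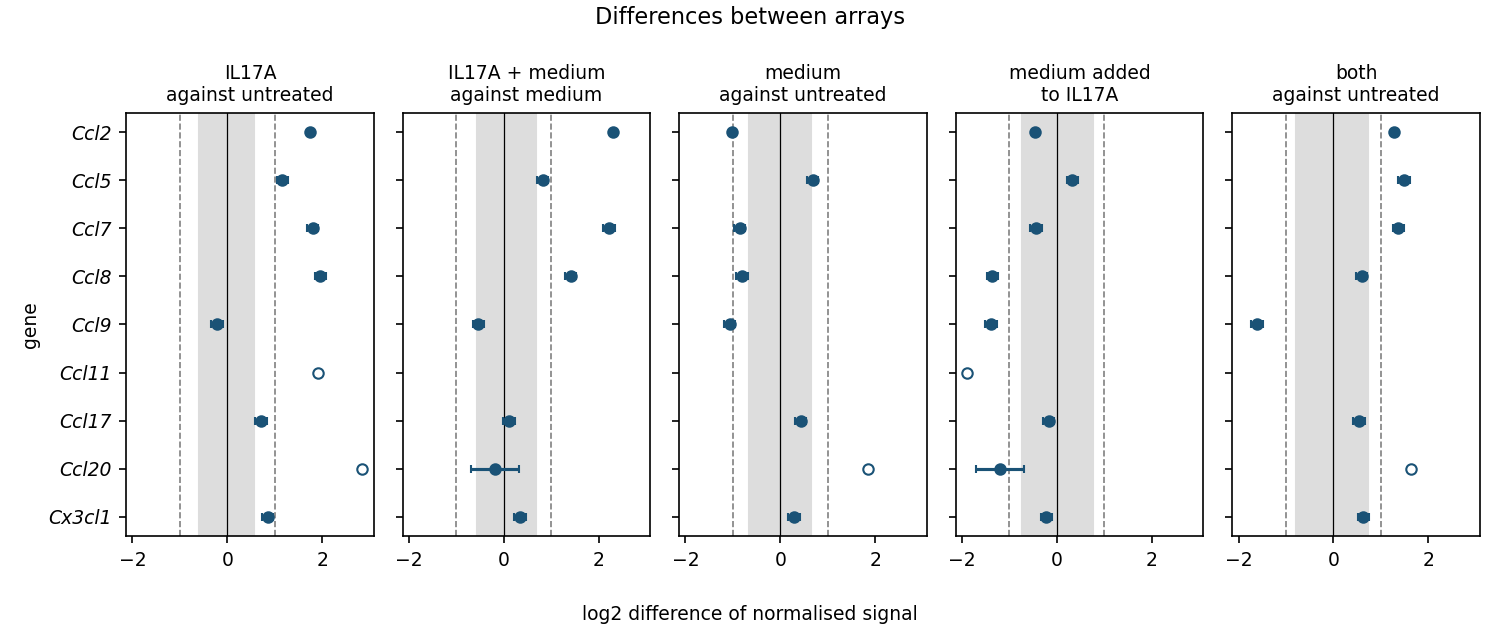
Log2 difference of normalised signal for each gene (vertical axis) in the 5 comparisons, with bars of 2 technical SDs from replicated spots. Open points have no bars and mark a comparison with 1 array not well above background. They are bounds, except for Ccl20, where the untreated reading itself was used. A comparison with neither array above has no point. The grey band spans the 5th to 95th percentile of all genes and the dashed lines mark 2-fold; Ccl2 and Ccl7 lie furthest right in the second panel, at 2.30 and 2.22.

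Error was gauged from probes spotted several times on each array. The SD of a log2 difference between single spots was 0.253 for spots dimmer than 5 in log2 signal, 0.118 for those between 5 and 7, and 0.063 for brighter ones. This technical SD leaves out differences between cultures and RNA preparations and is a lower limit of the true error. The scanner's own error estimate for bright spots, 10% of their signal, is wider, and the orders of arrays below do not use it. Of 43379 non-control spots per array, between 58.1% and 60.5% were well above background and none was saturated. The scaling between arrays shifted the balance of higher and lower genes. With each array scaled to its 75th percentile, 1.66% of genes were higher and 3.36% lower with IL17A alone, and 4.50% were higher and 1.06% lower with IL17A in medium. Medium alone then had 1.67% higher and 4.07% lower genes, and medium on top of IL17A had 4.88% and 2.34%.

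Stellate cell and fibroblast markers were well above background for 7 to 9 of 11 genes per array, with summed normalised signal from 74670 (both) to 131780 (untreated). Lhx2, a transcription factor of stellate cells, was above background on every array (log2 levels 7.38 to 8.19), and Des, or desmin, on 3 of 4. Reln and Hand2 were never above it, and Lrat, the retinol-esterifying enzyme of quiescent stellate cells, only on the array with both agents. Hepatocyte markers were above background for 0 of 5 genes. Of 11 macrophage markers, Adgre1, Clec4f, Itgam, Fcgr1 and Tyrobp were not above background on any array and 4 to 6 others were. Their summed signal was 556 untreated, 1350 with IL17A, 552 with medium and 881 with both, most of it from Cd14, an endotoxin co-receptor, which differed by 1.41 on the log2 scale with IL17A. Csf1r, the receptor of macrophage growth factor, was dimmer and differed by 1.41 with IL17A and by 1.15 with both, and Ptprc, the leukocyte antigen CD45, was above background only with both (a log2 difference of at least 1.39 from untreated). This sum moves with the IL17A differences below, and its part in them was not tested. Of the endothelial markers Kdr, Stab2 and Vwf, of the T cell markers Cd3e and Lck, and of the neutrophil markers S100a8 were above background on every array. Lck, a kinase of T cells, was 2.55-fold higher with medium and 2.14-fold higher with both, and the summed T cell signal was 52, 60, 89 and 74 in the order above. The endothelial sums lay between 48 and 60 and the neutrophil sums between 57 and 69. Among endothelial markers Pecam1, Cdh5, Tek and Lyve1, among T cell markers Cd3d, Cd4 and Cd8a, among neutrophil markers S100a9, Cxcr2 and Csf3r, and among fat cell markers Adipoq, Plin1 and Lep stayed below background. The summed signal of 5 fat cell markers was 141, 339, 131 and 175 in the order above, carried by Fabp4, and that of 7 biliary and mesothelial markers, of which 4 or 5 were measured, was 17811, 10759, 11946 and 7970. The part of these in the results was not tested. In RNA from whole cultures, fewer cells of a type and less RNA per cell cannot be told apart.

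Ccl2, Ccl7 and Ccl8 encode ligands that draw monocytes, Ccl2 and Ccl7 chiefly through Ccr2. Their probes, with Ccl11, lie in 1 cluster on chromosome 11 (mm9). Ccl2 is at chr11:81850650-81850709, Ccl7 starts 9.9 kb further on at chr11:81860656-81860715, Ccl11 is at chr11:81876072-81876131 and Ccl8 at chr11:81930108-81930167, all on the plus strand. The files give no exon or UTR annotation for these positions.

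Ccl2 was spotted 10 times on each array, which gives it the best-measured levels of the 9 genes. Its processed signal was 39842 ± 1511 untreated, 138069 ± 7567 with IL17A, 20222 ± 905 with medium and 99979 ± 4654 with both (mean ± SD of 10 spots, and of 9 with both, where an outlying spot was left out). The 4 sets of spots did not overlap, and the order from high to low was IL17A, both, untreated, medium. On the normalised log2 scale the levels were 15.31 untreated, 17.05 with IL17A, 14.29 with medium and 16.59 with both. IL17A was thus accompanied by 3.35-fold more Ccl2 without medium and 4.94-fold more with it. Taken spot by spot, the log2 difference was 1.74 (range 1.61 to 1.95) without medium and 2.29 (range 2.19 to 2.49) with medium. Only 72 of 14707 genes measured on both arrays had a larger difference with IL17A alone, and 23 of 14920 in medium.

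**Figure D2:**
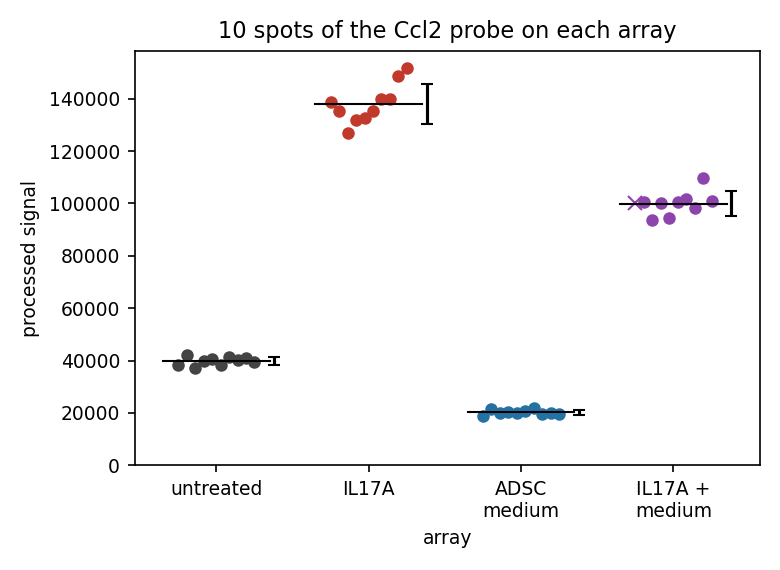
Processed signal (vertical axis, linear) of each of the 10 spots of the Ccl2 probe on the 4 arrays; horizontal lines are means, bars on the right of each set are SDs between spots of that array, and the cross is the spot left out. The means are 39842, 138069, 20222 and 99979, and no set of spots overlaps another.

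Medium was accompanied by lower Ccl2 both without and with IL17A. Without IL17A the log2 difference was -1.02, or 2.03-fold, which is at the edge of the size rule. It was -0.87, -0.64 and -0.95 with 75th percentile scaling, median scaling (-0.91 relative to the median of all genes there) and normexp background correction, so that none of these settings keeps the call. Added to IL17A, medium went with a log2 difference of -0.46 (1.38-fold lower), or 26.4% of the log2 rise over untreated cells. The IL17A difference was larger in medium by 0.56. By median scaling this difference of differences was -0.05, where the median over all genes was -0.463, so that Ccl2 stood 0.41 above it.

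Ccl7 followed Ccl2 closely across the 4 arrays. The normalised log2 levels of its brighter probe were 14.04 untreated, 15.85 with IL17A, 13.19 with medium and 15.41 with both, in the same order as Ccl2. IL17A differences were 1.80 (3.49-fold) without and 2.22 (4.67-fold) with medium, and medium differences were -0.86 and -0.44. A second Ccl7 probe gave 1.95 and 2.20 for IL17A and -0.72 and -0.47 for medium, so both probes agree in direction. The IL17A difference was larger in medium by 0.42 for the first probe, and by median scaling it was -0.12, or 0.34 above the median of all genes. After the mean of each was removed, Ccl2 and Ccl7 lay 0.058 apart (root mean square log2 distance over the 4 arrays), the closest of the 21 pairs among these genes, whose distances had a median of 0.82. Each was the other's nearest gene among all those searched.

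Ccl8 was higher by a similar factor with IL17A and kept less of the difference when medium was added. Its normalised log2 levels were 7.63 untreated, 9.59 with IL17A, 6.82 with medium and 8.23 with both. The order was again IL17A, both, untreated, medium. IL17A went with 3.88-fold more Ccl8 without medium and 2.66-fold more with it, and medium with 1.75-fold less without IL17A and 2.56-fold less with it. With medium added, 69.2% of the log2 rise over untreated cells was gone, beside 26.4% for Ccl2 and 24.3% for Ccl7. The share was 98.7% for Ccl11 (from bounds), 42.2% for Ccl20 and -28.5% for Ccl5, which was higher still with both. These shares compare arrays of different slides and, for Ccl2, Ccl7 and Ccl8, take in the lower level that went with medium alone. The probes for Ccl2, Ccl7 and Ccl8 share no run longer than 13 of 60 bases with any other CC family probe.

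The RefSeq promoter of Ccl8 (GRCm38.p6, chr11:82114935-82115234, plus strand, 250 bases before to 50 after the start) is shown because Ccl8 is the only gene of this cluster with an entry in the promoter table, in which 5 of the 9 genes were found. The motifs searched on both strands were a kB core (GGG and CC with any 5 bases between), a C/EBP core (TTGCNNAA), an AP-1 site (TGANTCA) and a TATA box (TATAAA). They occur in 50.8%, 10.8%, 7.81% and 13.6% of the 32851 promoters in the table. Capitals mark the match, a TATA box at -32 to -27, and the other motifs had none in this window.
Ccl8: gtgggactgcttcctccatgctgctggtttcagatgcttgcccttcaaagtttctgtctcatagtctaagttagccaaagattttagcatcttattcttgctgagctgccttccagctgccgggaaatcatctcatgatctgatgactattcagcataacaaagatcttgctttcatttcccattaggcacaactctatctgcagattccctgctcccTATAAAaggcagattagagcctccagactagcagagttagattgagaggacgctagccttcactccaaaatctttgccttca

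Ccl11, eotaxin, draws eosinophils through Ccr3. Its processed signal was 1.34 untreated, 17.3 with IL17A, 1.05 with medium and 4.15 with both. It was well above background only with IL17A. There it was at least 3.76-fold higher than in untreated cells and at least 3.70-fold higher than with both. These bounds set the IL17A level of 4.25 (log2) against the lowest level well above background on the other array (2.34 and 2.37), where the probe itself read 0.31 and 1.92. The remaining comparisons have no value for Ccl11. With normexp correction, which adds an offset of 50 that compresses dim probes, the 2 bounds shrank to log2 differences of 0.39 and -0.31 and no longer passed.

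Ccl5 and Ccl9 lie further along chromosome 11, Ccl5 at chr11:83339296-83339355 and Ccl9 48.9 kb on at chr11:83388223-83388282, both on the minus strand (mm9). Ccl5, or RANTES, draws T cells and monocytes. Its brighter probe had normalised log2 levels of 12.12 untreated, 13.29 with IL17A, 12.80 with medium and 13.62 with both. At the brightest probe of each gene, Ccl5 was the only one of the 9 that was highest with both agents, and medium was lower than IL17A by 0.49. IL17A went with 2.24-fold more Ccl5 without medium (1.16 on the log2 scale) and 1.76-fold more with it (0.82), and medium with 1.60-fold and 1.26-fold more. Its second probe gave log2 differences of 1.25, 0.86, 0.62 and 0.23 in the same order. Medium added to IL17A was thus accompanied by higher signal at both Ccl5 probes. The brightest probes of the other 8 genes had a difference below 0 (a bound for Ccl11), and the dimmer Cx3cl1 probe had 0.15. By median scaling the Ccl5 difference was 0.1, or 0.27 relative to all genes.

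Ccl9, which binds Ccr1, was the gene that did not go up with IL17A. Its processed signal was 442 untreated, 355 with IL17A, 192 with medium and 140 with both, and its normalised log2 levels were 8.71, 8.50, 7.65 and 7.10. The 4 levels differed by more than 2 technical SDs at each step of that order, untreated, IL17A, medium, both. The scanner's own, wider error was 44.2 untreated and 35.5 with IL17A, so the first step is less clear by that measure. Medium went with 2.10-fold less Ccl9 without IL17A and 2.63-fold less with it, and both agents with 3.05-fold less than untreated. IL17A differences were -0.22 without medium, which was 0.01 by median scaling (-0.20 relative to all genes), and -0.54 with it. The medium difference without IL17A, -1.07, fell short of 2-fold by median scaling (-0.86, or -1.13 relative to all genes) and with normexp (-0.78), and the difference on top of IL17A passed under both (-1.57 and -1.01).

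The Ccl9 promoter (GRCm38.p6, chr11:83578587-83578886, minus strand) is shown for a gene that was lower with medium both without and with IL17A. It held a kB core on the strand opposite to the gene at -35 to -26, and an AP-1 match, TGAATCA, at -53 to -47. TATA matches lay at -224 to -219 and -94 to -89, both on the opposite strand, and at -92 to -87 on the gene's own strand. The last pair overlap, and all matches are in capitals.
Ccl9: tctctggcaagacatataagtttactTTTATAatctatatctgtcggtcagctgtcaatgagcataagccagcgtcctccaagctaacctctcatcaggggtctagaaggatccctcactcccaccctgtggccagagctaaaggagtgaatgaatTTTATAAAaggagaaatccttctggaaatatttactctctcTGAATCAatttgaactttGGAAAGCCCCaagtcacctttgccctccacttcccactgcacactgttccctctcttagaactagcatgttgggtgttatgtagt

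**Figure D3:**
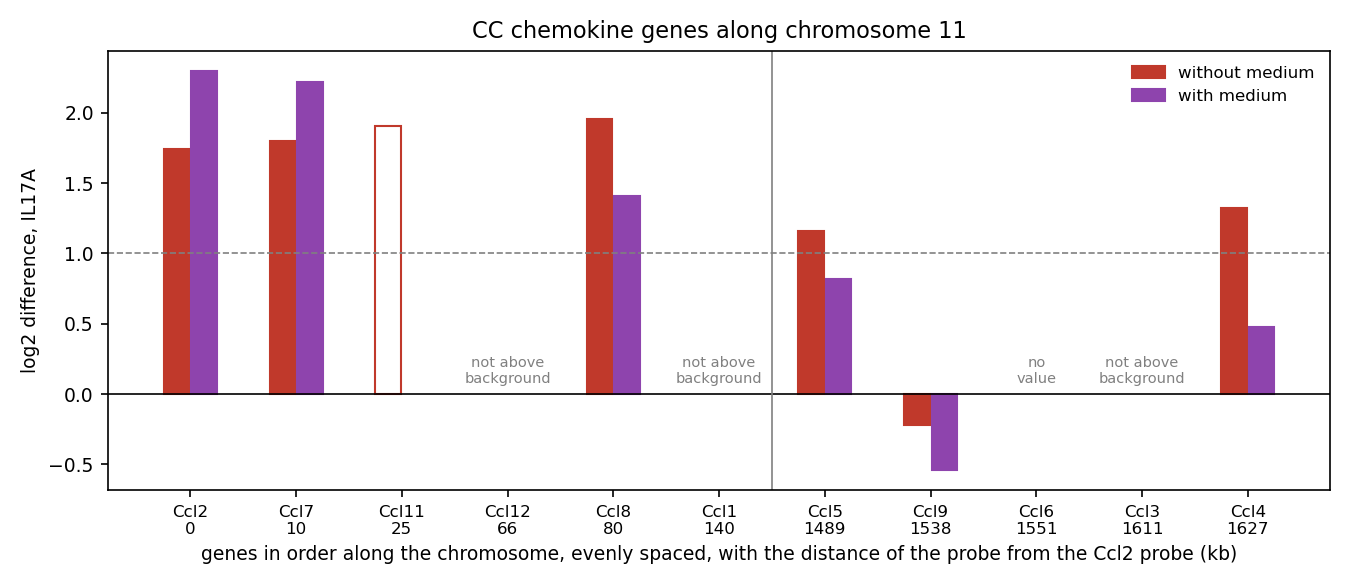
Log2 difference with IL17A (vertical axis) for CC chemokine genes in their order on chromosome 11, without medium (red) and with medium (purple); genes are evenly spaced and the number under each is the distance of its probe from the Ccl2 probe in kb. Open bars are bounds, the dashed line is 2-fold, the vertical line separates the gap of 1348.9 kb between Ccl1 and Ccl5, Ccl11 was not above background on either array with medium, and Ccl6, dim and measured only untreated, has no value. Ccl2, Ccl7 and Ccl8 pass 2-fold in both settings, while Ccl12, Ccl1 and Ccl3 were not above background.

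Of 12 other CC ligand genes on the array, 5 were well above background on at least 1 array, and Ccl4 alone passed the size rule with IL17A. Ccl12, between Ccl11 and Ccl8, and Ccl1 were not above background on any array, and neither was Ccl3. Ccl4, which draws monocytes and T cells, lay next to Ccl3 and was above background on every array, with log2 levels of 3.81, 5.13, 4.86 and 5.34. Its highest array was the one with both agents, as for Ccl5, but by only 0.21 over IL17A alone. The technical SD between single spots at that level is 0.118, so this order lies within 2 technical SDs. IL17A differences were 1.32 without and 0.48 with medium.

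**Figure D4:**
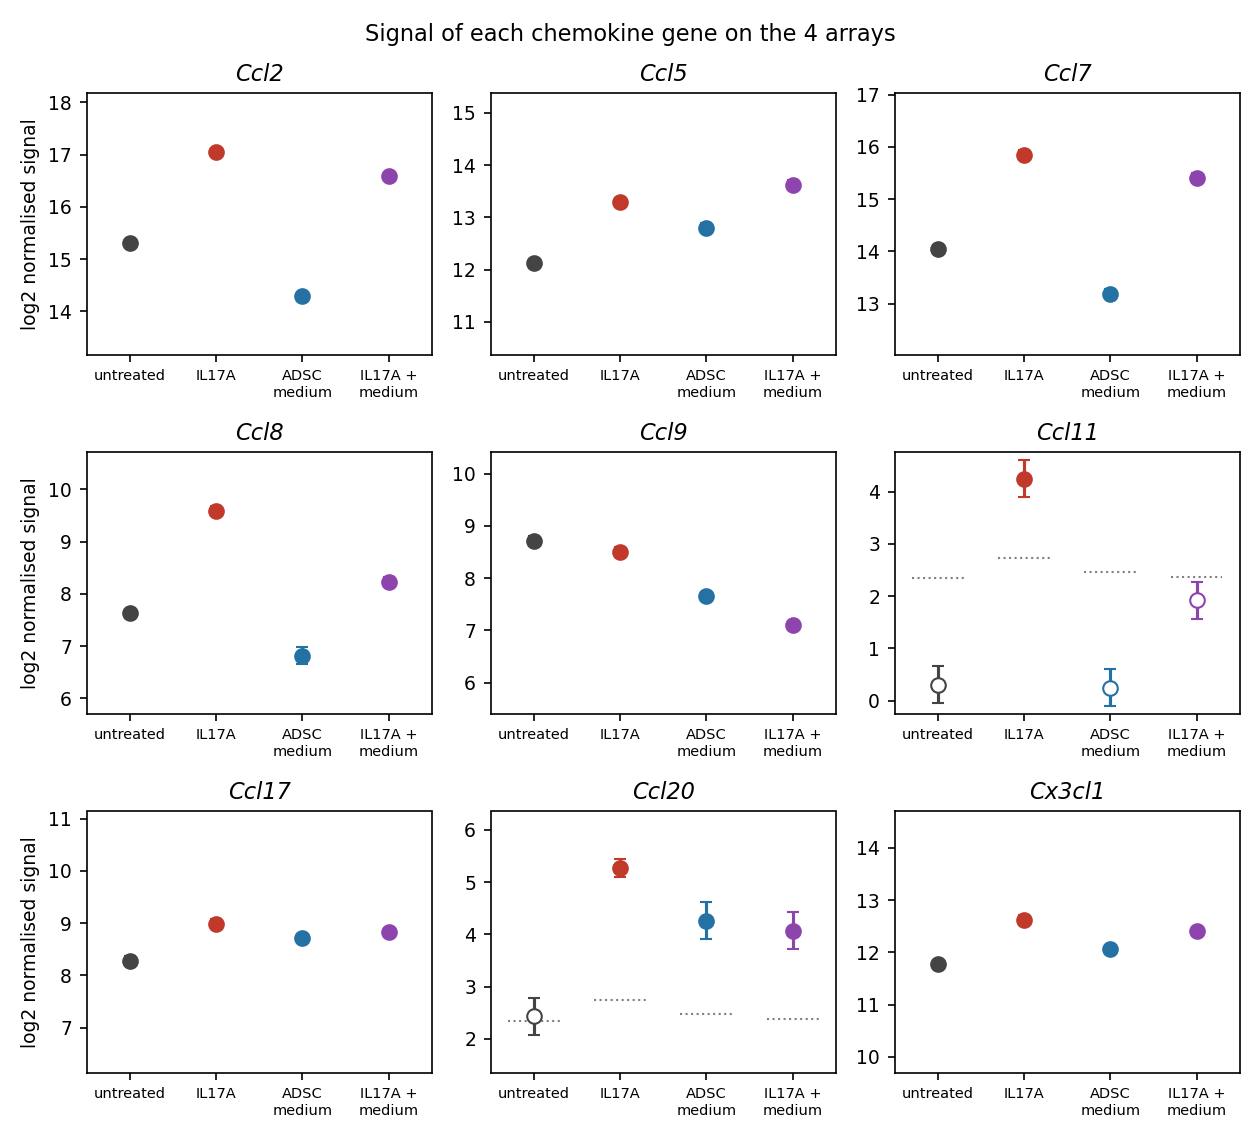
Normalised log2 signal (vertical axis) of each gene on the 4 arrays, 1 point an array; bars are 2 technical SDs of a level, open points were not well above background, and dotted lines are the lowest level well above background on that array. Ccl2, Ccl7 and Ccl8 share 1 order of arrays, Ccl5 is highest with both agents (13.62) and Ccl9 lowest there (7.10).

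Ccl17 and Cx3cl1 lie 29.5 kb apart on chromosome 8, at chr8:97335770-97335829 and chr8:97306185-97306244 (mm9, plus strand). Ccl17, or TARC, draws T cells through Ccr4, and Cx3cl1 binds Cx3cr1 on monocytes. At the brightest probe of each gene, neither passed the size rule in any comparison. Ccl17 had normalised log2 levels of 8.28 untreated, 8.99 with IL17A, 8.71 with medium and 8.82 with both. The array with both agents and that with medium differed by 0.11, within 2 technical SDs, and the other neighbours differed by more. The IL17A difference was 0.71 (1.63-fold) without medium and 0.11 with it.

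Cx3cl1 had levels of 11.77 untreated, 12.62 with IL17A, 12.06 with medium and 12.40 with both at its brighter probe. IL17A went with 1.81-fold more without medium (0.85 on the log2 scale) and 1.27-fold more with it (0.34), with every neighbour in the order further apart than 2 technical SDs. A second, dimmer probe at chr8:97296742-97296801 was above background only on the 2 arrays with IL17A. It was at least 1.98-fold higher there without medium and at least 2.01-fold higher with medium. That dimmer probe passed the size rule with IL17A in medium and with both against untreated (at least 2.2-fold). The IL17A call for Cx3cl1 therefore depended on processing, since the log2 difference was 1.11 by median scaling (0.90 relative to all genes) and 1.90 when the probes were averaged. The 1.90 takes in the dimmer probe's untreated log2 reading of 0.37, which was below background and was not raised to the lowest well-above-background level. Of the pairs among these genes, Ccl17 and Cx3cl1 were 0.108 apart in their centred pattern.

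The Cx3cl1 promoter (GRCm38.p6, chr8:94771930-94772229, plus strand) is shown for its base composition beside the CC genes. It held 19 CpG and 64.7% G and C, where the 4 CC promoters found had 2 or 3 CpG and 43.7% to 52.7%. Capitals mark a TATA match at -6 to -1, and the kB, C/EBP and AP-1 motifs had no match in this window or in that of Ccl17.
Cx3cl1: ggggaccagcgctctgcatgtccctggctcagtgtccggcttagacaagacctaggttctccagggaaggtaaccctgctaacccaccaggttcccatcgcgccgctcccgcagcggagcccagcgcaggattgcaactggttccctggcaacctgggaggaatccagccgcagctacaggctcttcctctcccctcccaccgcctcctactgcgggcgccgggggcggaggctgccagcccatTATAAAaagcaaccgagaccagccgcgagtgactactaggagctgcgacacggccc

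Ccl20, on chromosome 1 at chr1:83115500-83115559 (mm9, plus strand), draws Ccr6-bearing cells, among them the T cells that make IL17A. Its processed signal was 6.18 untreated, 36.1 with IL17A, 17.3 with medium and 18.1 with both. The probe was not well above background in untreated cells. Ccl20 was 7.20-fold higher with IL17A than untreated, 3.58-fold higher with medium and 3.13-fold higher with both. These values use the untreated reading itself (2.43 in log2), since it exceeded that array's lowest well-above-background level (2.34), so they are not bounds. The log2 differences with IL17A and with medium were 2.85 and 1.84, and with 75th percentile scaling 2.65 and 1.60. The normalised log2 levels were 2.43, 5.27, 4.26 and 4.07, and the arrays with medium and with both did not differ beyond their spread (0.19 at a technical SD of 0.25). In medium, IL17A was thus accompanied by no higher Ccl20, and medium added to IL17A went with a log2 difference of -1.20. All of these calls ended with normexp correction, where the differences from untreated cells shrank to 0.53, 0.25 and 0.19, and that of medium on top of IL17A to -0.35.

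The Ccl20 promoter (GRCm38.p6, chr1:83116516-83116815, plus strand) is shown for its kB letters. Capitals mark overlapping kB core matches on both strands from -82 to -71, the first being GGGGAAAACC. No TATA, C/EBP or AP-1 match was found in this window.
Ccl20: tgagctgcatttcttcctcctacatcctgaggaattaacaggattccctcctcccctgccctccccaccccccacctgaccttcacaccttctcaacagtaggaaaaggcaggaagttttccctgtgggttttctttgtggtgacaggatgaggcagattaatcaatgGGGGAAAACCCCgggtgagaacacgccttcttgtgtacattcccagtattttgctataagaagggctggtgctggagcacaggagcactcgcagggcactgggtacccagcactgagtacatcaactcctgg

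The IL17A difference was also fitted over both slides, with medium (and so slide) as a second term, over 15472 genes well above background on 2 or more arrays. This fit takes the pairs of arrays without and with medium as 2 measurements of IL17A and has 1 residual degree of freedom, so that its p-values lean on the spread across genes of similar level. The 2 pairs are not replicates of 1 condition. Any change of the IL17A difference with medium is counted as error, so the fit is approximate. In limma with Benjamini-Hochberg adjustment, 5 of the 8 genes tested were higher at an adjusted p below 0.05, against 2.54% of all genes, and none was lower against 3.79%. Ccl7 differed by 2.01 ± 0.0945 (log2 difference ± SE, adjusted p = 0.000252) and Ccl2 by 2.02 ± 0.119 (adjusted p = 0.000627). Ccl5 differed by 0.99 ± 0.0842 (adjusted p = 0.00218), Ccl8 by 1.68 ± 0.148 (adjusted p = 0.00242) and Cx3cl1 by 0.60 ± 0.112 (adjusted p = 0.029).

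Ccl9 (-0.38, adjusted p = 0.153), Ccl17 (0.41, adjusted p = 0.189) and Ccl20 (1.33, adjusted p = 0.366) did not pass that limma fit, and Ccl11 was outside it. The direction was the same on both slides for each of the 5 genes that passed. A gene with opposite directions would hardly pass this fit, so that agreement adds no support. Without the trend of spread on level, limma called 0 of 15472 genes, with 1852 at an unadjusted p below 0.05, and Ccl2, Ccl5, Ccl7 and Ccl8 had an adjusted p of 0.332. The limma call of Cx3cl1 ended under 5 alternatives, with an adjusted p of 0.167 by 75th percentile scaling, 1 by median scaling, 0.0772 with normexp, 0.0971 with the mean of probes and 0.436 without the trend. Ccl5 did not pass by 75th percentile scaling (adjusted p = 0.059) or median scaling (adjusted p = 1).

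In the authors' deposited list of 861 probes, of 41174 on the array, higher with IL17A than untreated, 7 of the 9 genes appear, all but Ccl9 and Ccl11. A gene is counted if any of its probes is listed, and for Ccl5, Ccl7 and Cx3cl1 another probe is not. The authors' deposited list of 1193 of the 41174 probes, higher with IL17A than with both, holds Ccl7 (again not its other probe), Ccl8, Ccl9 and Ccl20. How the authors set the threshold of their deposited lists is not stated in the labels or files.

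Among the receptors of these ligands, Ccr2, Ccr3, Ccr4, Ccr6 and Cx3cr1 were not well above background on any array. Of 6 atypical and scavenging receptors, Ackr3, a scavenger of CXC ligands, was above background on every array with log2 levels of 7.37, 8.62, 8.39 and 9.11. It was higher with IL17A alone (1.25), with medium alone (1.02) and with both (1.74). Ccrl2, which binds chemerin, was above background untreated and with IL17A, where it differed by 1.38, and was below it on both arrays with medium.

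Among 11 proteases that cleave or shed chemokines, Adam10 and Adam17, the sheddases of Cx3cl1, passed the size rule in no comparison. Their IL17A differences were -0.25 and 0.12 without medium. A second, dimmer Mmp9 probe differed by -1.01 with medium added to IL17A, where the brightest had -0.5. At the brightest probes, Mmp3, stromelysin, was the single protease of the 11 to pass. Its log2 levels were 6.51 untreated, 8.27 with IL17A, 3.67 with medium and 5.83 with both. Its order, IL17A, untreated, both, medium, was that of none of the 9 chemokines.

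The search for similar patterns covered genes above background on all 4 arrays whose range was at least 0.5 of the chemokine's. Clone, accession and predicted names were left out. The genes with the most similar pattern were then found by the same centred distance. For Ccl2 and Ccl7 they were, after each other, Fgf7, the keratinocyte growth factor, at 0.131 and 0.102, and Adamts7 at 0.217 and 0.197. For Ccl5 they were Sbno2 (0.035), Rasl11a (0.069) and Dram1 (0.088), and for Ccl8 Enpp2, or autotaxin (0.176), C1s1, a complement protease (0.227), and Blnk (0.242). For Ccl9 they were Tlr4, the endotoxin receptor (0.053), Lancl3 (0.074) and Frmd5 (0.076). For Cx3cl1 they were Rbpms (0.029), Sod2, the mitochondrial superoxide dismutase (0.044), and Ifitm3 (0.047), and for Ccl17 Zfp365 (0.017), Krt1 (0.027) and Gvin1 (0.031). These are distances over 4 arrays, and genes with a small range have many close neighbours, since 6170 genes were searched for Ccl17 and 515 for Ccl2.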

How the data were processed

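Total RNA of 4 IMS/N cultures was labelled with Cy3, per the labels' protocols, and hybridised to 1-colour Agilent mouse arrays. The deposited intensity values are processed signals from Feature Extraction 12.1.1.1, with probe positions on mm9, per the file headers. The mean and background intensity columns, also deposited, were used for normexp. The deposited score columns are flags for spots above background, saturated or outlying. The authors' quantile normalization, named in the series design, comes after these values.

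Control and outlier spots (91 to 126 per array) were left out, log2 signals were quantile normalized, spots of a probe were averaged and a gene took its brightest probe. On a dim array the gene's own level or, where higher, the array's lowest well-above-background level was used. The latter gives "at least" values. Models were fitted with limma 3.58.1 in R 4.3.3 (lmFit, then eBayes with its trend option), and other steps used Python 3.11.15, pandas 2.3.3 and NumPy 2.4.6, tested on simulated data. The number of arrays limits the precision. The genes, lists and tests were chosen with earlier results of these data known. Named beyond the 9 were up to 4 genes per pathway list that were 2-fold apart in some comparison, receptors, defining markers and the 3 genes nearest in pattern. Ccl1, Ccl3, Ccl6 and Ccl12, neighbours on chromosome 11, and Adam10, Adam17 and, among markers, Cd14, Fabp4, Csf1r, Lck, Cd3e, S100a8, Kdr, Stab2, Vwf, Lhx2 and Des were named outside this rule, after their values were seen. An item that the rule names is not reported here. Promoters came from RefSeq.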

Additional observations from a re-analysis of the deposited data

Results flagged for a closer look

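For Ccl17, Cx3cl1 and Ccl20 the difference that went with medium had opposite signs without and with IL17A, and for Ccl20 so did the IL17A difference without and with medium. None of these contrasts was tested, since each rests on 1 array a group. Ccl20 is dim, and its differences from untreated cells use a reading that was not well above background. For Ccl17, medium went with a log2 difference of 0.43 in untreated cells and -0.17 in cells with IL17A. For Cx3cl1 the same values were 0.29 and -0.22 at the brighter probe. Its dimmer probe gave 0.15 for medium on top of IL17A, within 2 technical SDs of 0, and the mean of the probes gave -0.03. For Ccl20, medium went with 1.84 in untreated cells and -1.20 with IL17A, and IL17A went with 2.85 without medium and -0.19 with it. The last of these lies within 2 technical SDs of 0 and was 0.04 with 75th percentile scaling.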

How the results depend on the processing

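Of 97 counts under alternatives, 79 kept within 1.5 times the main count and 18 did not. The 79 include counts of 0 that stayed at 0, such as those of lower genes with IL17A. For medium against untreated, the count of lower genes (2) became 1 with 75th percentile scaling, 0 with median scaling, normexp or a 4-fold threshold, and 4 at 1.5-fold. The share of all genes moved too, from 2.98% to 4.07%, 2.5%, 0.683%, 0.658% and 7.95% in that order. The count of higher genes there (1) became 0 with normexp, with both arrays required above background or at 4-fold, and 2 with the mean of probes or at 1.5-fold. The share of all genes went from 2.45% to 0.304%, 1.65%, 0.311%, 2.32% and 7.27%. The gene added by the mean of probes was Cx3cl1, whose dimmer probe was above background on neither array. For medium added to IL17A, the 4 lower genes became 2 with normexp (Ccl8 and Ccl9) and 0 at 4-fold, while the share of all genes went from 3.11% to 0.769% and 0.485%. For IL17A against untreated, the 6 higher genes became 1 at 4-fold (Ccl20), beside 0.586% of all genes. For both against untreated, the 4 higher and 1 lower became 0 and 0 at 4-fold, beside 0.702% and 0.905% of all genes. The limma count of 5 became 3 with 75th percentile or median scaling (Ccl2, Ccl7 and Ccl8), 4 with normexp or the mean of probes (Cx3cl1 lost) and 0 without the trend. No called value changed sign. All genes called by limma numbered 980 in the main setting, 165 with 75th percentile or median scaling, 489 with normexp and 270 with the mean of probes. Of 196 single differences under alternatives, 81 moved by 1 technical SD or more. Among the 196, 5 of uncalled size changed sign, including 0.11 to -0.11 for Ccl17 with IL17A in medium by median scaling (0.13 relative to all genes). Median scaling moved the median of all genes to 0.21 for IL17A alone, -0.239 for IL17A in medium, 0.266 for medium alone and -0.166 for medium added to IL17A, and values under it are read relative to these. The causes were not tested. The labels carry no replicate numbers, so arrays were paired by slide alone, through the medium term of the limma fit. Low signal over background limits Ccl11 and Ccl20.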

Other observations

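CXC chemokines, which draw mainly neutrophils, were measured beside the CC genes. Of 12, Cxcl1, Cxcl2, Cxcl5 and Cxcl16 passed the size rule with IL17A alone, and Cxcl1 and Cxcl5 with IL17A in medium. The log2 differences were 5.26 for Cxcl1 and 5.70 for Cxcl5 without medium and 5.38 and 5.91 with it. Medium went with -0.67 and -1.14 for these genes without IL17A and with -0.55 and -0.92 on top of it.

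Heparan sulphate on the cell surface holds secreted chemokines. All 14 of the genes listed for its core proteins and modifying enzymes were above background on every array, and with IL17A alone 0 of 14 passed the size rule. Sulf2, an enzyme that removes sulphate groups from these chains, was higher by 1.12 with medium, and Sulf1 by 0.88, short of 2-fold. Added to IL17A, medium went with 1.21 for Sulf1 and 0.79 for Sulf2. Sdc3 was 1.08 higher with medium at its brightest probe and 0.24 at another. These medium differences cannot be told apart from slide.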
